A study of Diplotaxodon limnothrissa and Petrotilapia genalutea and Rhamphochromis longiceps with 60 samples.

Results

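Differentially methylated regions (DMRs) between the livers of Lake Malawi cichlids were listed by the authors for 6 species and, separately, for 3 of them. The regions described here are the liver DMRs of the 6-species list that share no base with a liver DMR of the 3-species list, and they are called added DMRs. They numbered 7684 of the 13331 liver DMRs of the 6 species (57.6%), and of 50673 DMRs in the 4 lists of the series. The other 5647 liver DMRs of the 6-species list overlapped the 3-species list by at least 1 bp and are called shared DMRs.

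The 3-species list came from livers of the deep-water Diplotaxodon limnothrissa (DL), the rock-dwelling Petrotilapia genalutea (PG) and the open-water predator Rhamphochromis longiceps (RL), and the longer list also used Maylandia zebra (MZ), Aulonocara stuartgranti (AS) and Astatotilapia calliptera (AC). Whole-genome bisulfite sequencing of homogenised adult liver from fish labelled as wild-caught gave methylomes of 3 MZ, 2 AS, 2 AC, 3 DL, 3 PG and 2 RL fish, and 1 AS fish is labelled female whereas the other liver fish are labelled male. The AC fish came from a river and the AS fish, by the study's own sample list, from the aquarium trade, and the AC fish were collected in another year than the MZ, DL, PG and RL fish. The AS libraries were read on another sequencer with shorter reads, and the study lists fewer reads kept for each AC liver than for any other liver. Species therefore cannot be told apart from source, year, sequencer or depth for AS and AC, and whole liver mixes its cell types. Muscles of DL, PG and RL (2 fish each) gave a list of DMRs between muscles, and both tissues gave a list of DMRs between tissues within these species.

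In vertebrates, cytosines are methylated mostly where a guanine follows them (CG sites), and most such sites in the genome are methylated. Bisulfite treatment converts unmethylated cytosines and spares methylated ones, so the methylation of a site can be read from sequence. Neighbouring CG sites tend to share their state, which is why differences are summarised as regions, and methylation at promoters and at transposable elements is known for its ties to gene silencing.

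With 6 species there were 15 pairs in which a liver DMR could arise, against 3 pairs with DL, PG and RL alone, so 12 of the pairs included a further species. The lists give a sequence, a start and an end for each region and neither the pair of species nor the methylation level, direction, number of CG sites or coverage. An added DMR was therefore found in the 6-species comparison only, and which pair gave it was not analysed here. The authors used the replicate fish of each species to predict the regions, but each comparison is given as a single list, with no values per fish, and regions are not replicates of a species, so the values below describe the lists and no test was made. Positions are those of the M. zebra UMD2a assembly, counted from 1, and the genes, exons and repeats at these positions were not analysed here.

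The 3-species list was contained in the longer one. All 5787 of its DMRs lay wholly inside DMRs of the 6-species list, where 3309 of the shared DMRs had the same ends (58.6%) and 2338 had other ends. A shared DMR spanned 2 or more DMRs of the 3-species list in 130 instances. The longer list thus exceeded the shorter in 2 ways, by added DMRs that covered 2.63 Mb and by longer shared DMRs, in which 0.693 Mb lay outside the 3-species DMRs. These extensions made up 20.8% of all the sequence in the longer list that the shorter list does not hold. By sequence covered, the added DMRs were a smaller share of the 6-species list (43.9%) than by number, against 3.36 Mb in shared DMRs.

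Added DMRs were shorter than shared DMRs. Their median length was 219 bp, with quartiles at 104 and 432 bp and a mean of 342 ± 377 bp (SD over 7684 regions), whereas shared DMRs had a median of 420 bp, quartiles at 203 and 764 bp and a mean of 595 ± 628 bp (SD over 5647 regions). A longer region has more bases with which to meet the 3-species list, so the rule itself bears on this difference. Among shared DMRs, those with the same ends in both lists had a median of 270 bp and those with other ends 621.5 bp, so added DMRs were also shorter than the shared DMRs that the further species left as they were. Those with the same ends are themselves a selected part of the shared DMRs. The 3-species list as a whole had a median of 307 bp. The median lengths of muscle DMRs (278 bp) and of DMRs between tissues (249 bp) lay between those of added and shared DMRs. In the upper range, DMRs between tissues were shorter than added DMRs, since the upper quartile of added DMRs was 432 bp, against 409 bp between tissues, and 5.88% of added DMRs, against 2.83% of those between tissues, were 1000 bp or longer.

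Both tails of the length distribution differed. Of the added DMRs, 1801 were shorter than 100 bp (23.4%), against 613 of the shared DMRs (10.9%). The shortest length in the lists is 50 bp, and 42 added and 9 shared DMRs had it. Lengths of 1000 bp or more were found in 452 added DMRs (5.88%) and 896 shared DMRs (15.9%). These long DMRs held 25.4% of the sequence in added DMRs and 45.3% of that in shared DMRs. The median of added DMRs was below that of shared DMRs on each of the 22 placed sequences, which are the chromosome-scale sequences of the assembly, with added medians from 215 to 307 bp.

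**Figure D1:**
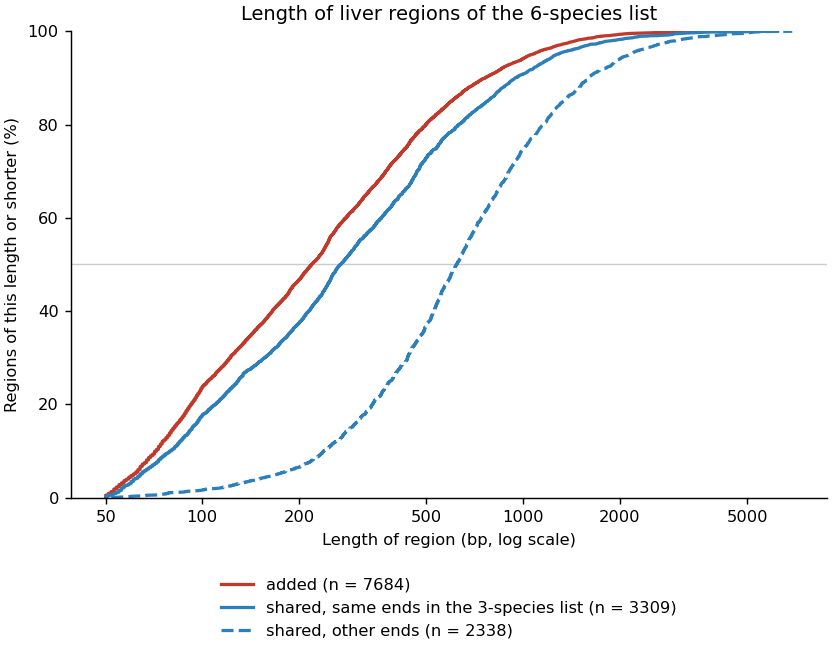
Cumulative share of liver DMRs (%, y axis) by length (bp, log scale, x axis) for added DMRs, shared DMRs with the same ends in both lists and shared DMRs with other ends. The grey line marks 50%, which the lines cross at 219, 270 and 621.5 bp.

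The longest added DMR was 5139 bp long, at NC_036789.1:30399253-30404391. It was the only one of the 5 longest that touched a DMR between tissues, with which it shared 153 bp, and its nearest 3-species DMR was 13035 bp away. The next were a DMR of 4396 bp at NW_020192474.1:218936-223331 and one of 4275 bp at NW_020193110.1:20781-25055, both on unplaced sequences without any 3-species DMR. They were followed by 3926 bp at NC_036788.1:20188258-20192183 and 3854 bp at NC_036790.1:31378511-31382364, which lay 26564 and 34163 bp from the nearest 3-species DMR. None of the 5 overlapped a muscle DMR. The longest shared DMR measured 6908 bp.

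Few added DMRs lay at the edge of the rule. The closest pair of an added and a 3-species DMR was separated by 11 bp, at NW_020192799.1:69860-70201 (342 bp long). Gaps of 12 bp at NW_020193547.1:32148-32433 and of 13 bp at NC_036785.1:10740104-10740189 came next. Within 100 bp of a 3-species DMR lay 30 added DMRs, within 1000 bp 487 (6.34%) and within 10000 bp 1722 (22.4%). The median gap was 38108 bp among added DMRs on sequences that hold a 3-species DMR, and 609 added DMRs lay on sequences that hold none. On the other side of the rule, the smallest overlap of a shared DMR was 50 bp, which 14 shared DMRs had. The first of them by sequence name were those at NC_036780.1:2761961-2762010 and NC_036784.1:1657413-1657462, of which it was the whole length. A smaller overlap could not occur, since each 3-species DMR lay wholly inside a 6-species DMR and none was shorter than 50 bp. A shared DMR of 395 bp at NC_036790.1:28215836-28216230 also owed its place to 50 bp. Nearness to the 3-species list went with little difference in length, since added DMRs within 10000 bp of it had a median of 233 bp and those farther away, or with none on their sequence, 215 bp.

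Added DMRs were spread over 872 sequences of the assembly, of which 850 are unplaced, meaning that they are not assigned to a chromosome. On unplaced sequences lay 2334 added DMRs (30.4%), 1403 shared DMRs (24.8%) and 2772 DMRs between tissues (10.2%). Set against DMRs between tissues, pooled over all sequences of a kind, there were 84.2 added DMRs per 100 on unplaced sequences and 21.9 on placed ones. The pattern was also seen in shared DMRs (50.6 and 17.4) and in muscle DMRs (35.6 and 13.9), of which 22.5% lay on unplaced sequences. Both kinds were shorter on unplaced sequences, where the median was 174 bp for added and 327 bp for shared DMRs, against 241.5 and 451 bp on placed sequences. How well reads map to the unplaced sequences was not analysed here.

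Of the unplaced sequences, 384 held a single added DMR and 33 held 10 or more, 431 added DMRs in all. On 365 sequences, all of them unplaced, there were added DMRs (609) and no shared DMR. The opposite, shared DMRs and no added DMR, was found on 193 sequences with 265 DMRs. The most added DMRs were on NW_020192332.1 and NW_020192386.1, with 21 each beside 8 and 11 shared DMRs. NW_020192365.1 followed with 20 added and 10 shared DMRs. These 3 sequences held only 4, 2 and 7 DMRs between tissues.

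Added DMRs rarely coincided with DMRs of the other lists. An overlap of at least 1 bp with a muscle DMR was found in 378 added DMRs (4.92%), against 2444 shared DMRs (43.3%). MZ, AS and AC gave no muscle methylome to the muscle list. It comes from the same 3 species as the 3-species liver list, so species and tissue cannot be told apart in this contrast. The rule keeps as added only regions without a liver DMR among these 3 species, so the rule itself favours a lower muscle overlap. An overlap with a DMR between tissues was found in 207 added DMRs (2.69%) and 290 shared DMRs (5.14%). MZ, AS and AC gave no methylome to the list between tissues either. Neither kind of overlap was found in 7106 added DMRs (92.5%), against 2960 shared DMRs (52.4%). On each of the 22 placed sequences the share with a muscle overlap was lower among added than among shared DMRs, and on 19 of them so was the share that overlapped a DMR between tissues.

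The lower share with a muscle overlap among added DMRs, which the rule favours, was present in each of the 5 length classes. Its repetition over length classes and placed sequences is therefore no separate result. Among DMRs under 100 bp, 2.11% of the added and 9.30% of the shared ones overlapped a muscle DMR, and among those of 1000 bp or more 10.4% of the added and 75.8% of the shared ones did. For DMRs between tissues the classes ran from 2.33% to 3.32% in added DMRs and from 4.35% to 6.70% in shared DMRs. The added DMRs with a muscle overlap had a median length of 380 bp, against 212 bp in those without. The longest of them, 3268 bp at NC_036792.1:535528-538795, shared 162 bp with muscle DMRs. Seen from the muscle list, 388 of its 4390 DMRs overlapped an added DMR (8.84%), 2614 a shared DMR (59.5%), 18 of these both, and 1406 neither (32.0%).

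**Figure D2:**
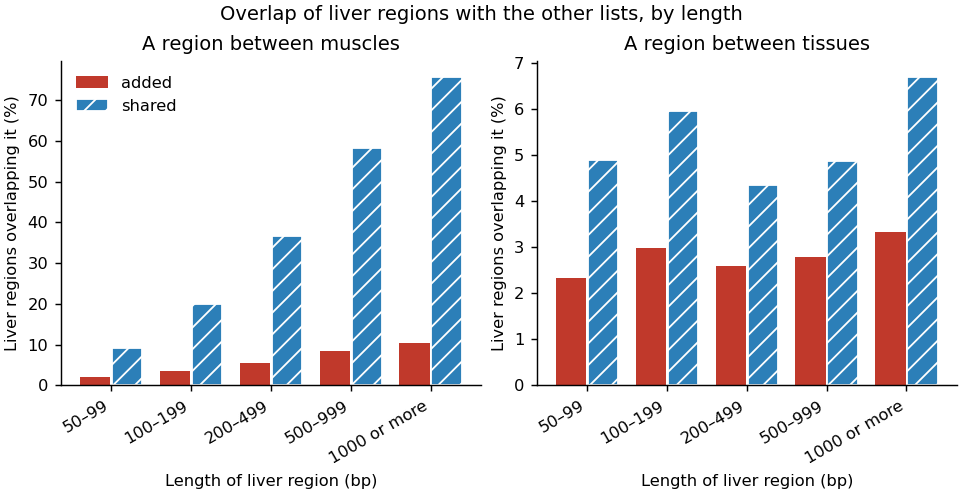
Share of added and shared liver DMRs (%, y axis) that overlap a DMR between muscles (left) or between tissues (right) by at least 1 bp, in 5 length classes (bp, x axis). In muscle the added bars run from 2.11% to 10.4% and the shared bars from 9.30% to 75.8%, and the 2 panels have different y axes.

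Added DMRs often lay near each other. Of the 7684, 2783 (36.2%) had another added DMR within 10000 bp, which joined them into 1173 groups, 879 of them pairs. Groups of 5 or more numbered 32 and held 189 DMRs, and the largest held 10. Among shared DMRs, 29.8% had another shared DMR within this distance and the largest group held 6. In the 3-species liver list (5787 DMRs) the share was 32.7%, between those of shared and added DMRs. The lists differ in length, which bears on these shares and was not corrected for. Muscle DMRs (4390) reached 32.3% and DMRs between tissues (27165) 64.5%, and within 1000 bp the share of muscle DMRs (16.6%) was above that of added DMRs (16.2%). The share was higher in added than in shared DMRs on 17 of the 22 placed sequences.

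Added DMRs were also above shared DMRs at the other distances tried, where the uncorrected difference in list length applies as well. With neighbours joined within 1000 bp, 16.2% of added and 11.1% of shared DMRs had a neighbour of their own kind. Within 5000 bp the shares were 27.3% and 21.7%, and within 50000 bp 65.6% and 57.5%. The 3-species liver list lay between them at these distances, with 14.1%, 24.9% and 59.1%. A shared DMR that spans 2 or more 3-species DMRs (130 instances) counts as a single region. List length is therefore not the only limit on the contrast with shared DMRs. In 527 added DMRs (6.86%) the nearest added DMR was at most 200 bp away, and in 1622 (21.1%) it was over 100000 bp away or on another sequence. The DMRs with the closest neighbours were not the longest, since the median length was 181 bp for those with a neighbour within 200 bp and 270.5 bp for those with one between 200 and 1000 bp. When all DMRs of the 6-species list could serve as neighbours, 48.1% of the added DMRs had one within 10000 bp. The groups formed in this way numbered 2477, of which 1210 held both kinds, 815 added DMRs alone and 452 shared DMRs alone.

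**Figure D3:**
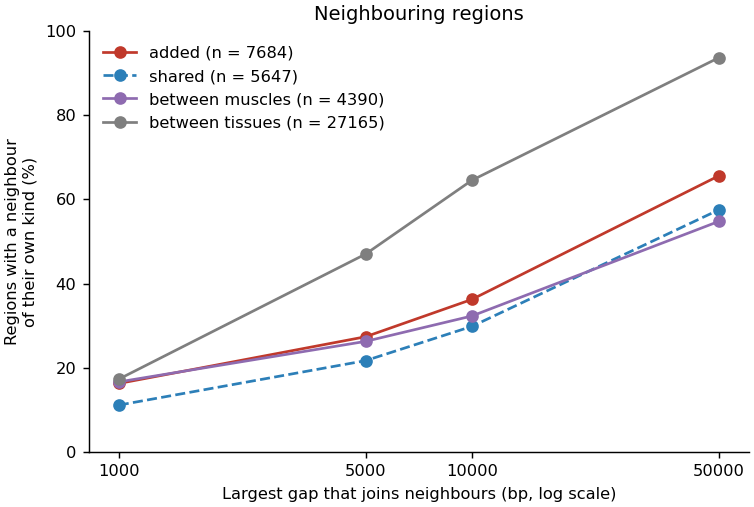
Share of DMRs with a neighbour of their own kind (%, y axis) by the largest gap that joins neighbours (bp, log scale, x axis) for added DMRs, shared DMRs, DMRs between muscles and DMRs between tissues. Added DMRs lie above shared DMRs at each of the 4 gaps, and the list of DMRs between tissues is the longest and highest.

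The largest group was on an unplaced sequence, at NW_020193110.1:2277-32691. Its 10 added DMRs covered 7514 of 30415 bp (24.7%) and included the DMR of 4275 bp given above, and no DMR of the other lists lay inside. The next group, at NC_036782.1:7165929-7185624 on the third placed sequence, had 9 added DMRs of 89 to 1739 bp. They covered 5447 of 19696 bp (27.7%), and 1 shared DMR and 2 muscle DMRs lay between its ends. A further group of 9 at NW_020192951.1:3367-40058 was made of shorter DMRs, with a median of 170 bp and 1516 bp in all. It held 3 muscle DMRs and no shared DMR.

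The third placed sequence, NC_036782.1, was set for description beforehand, with its uneven density already named. Its ranks among the placed sequences in density, unevenness and dense windows are therefore no separate result. It held 411 added DMRs. This was 11.0 added DMRs per Mb, measured to the end of the last DMR of any list on each sequence, since the lists give no sequence lengths. The other 21 placed sequences had between 5.06 and 8.39 per Mb with a median of 6.78, and 6.83 when pooled, so the density on the third was 1.61 times theirs. The next densest was NC_036783.1 with 8.39 per Mb. The length of added DMRs was not raised on the third sequence, where the median of 226 bp was among the lowest of the 22.

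Shared DMRs were also densest on the third sequence, with 305 DMRs or 8.17 per Mb, 1.5 times the other placed sequences. Muscle DMRs were densest there too, with 210 DMRs or 5.63 per Mb, 1.27 times the others. The 811 DMRs between tissues went the other way, since their density of 21.7 per Mb was the lowest of the 22 and 0.666 times the others. Added DMRs per shared DMR came to 1.35 on the third sequence, inside the range of the others (1.05 to 1.45). Added DMRs per 100 DMRs between tissues came to 50.7, outside the range of the others (14.3 to 26.9).

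**Figure D4:**
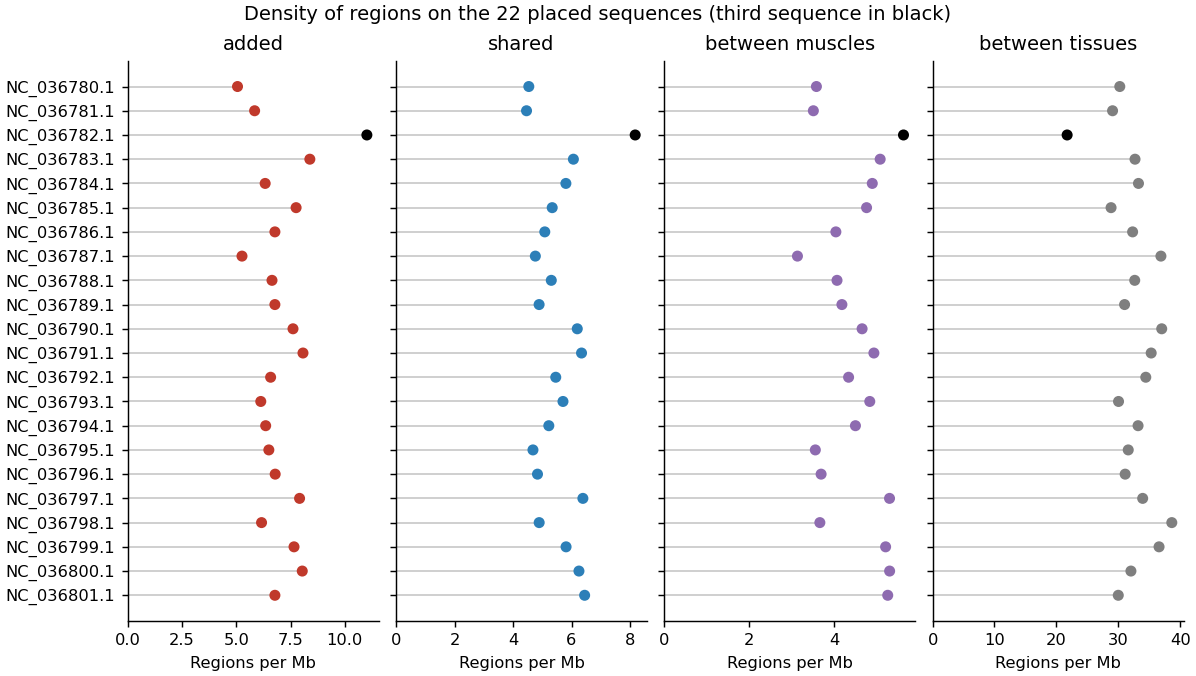
DMRs per Mb (x axes) on each of the 22 placed sequences (y axis, in the order of their names) for added DMRs, shared DMRs, DMRs between muscles and DMRs between tissues, with the third sequence in black. The black point is the highest in the first 3 panels (11.0, 8.17 and 5.63 per Mb) and the lowest in the last (21.7 per Mb).

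The added DMRs of the third sequence were unevenly placed along it, which was known when the sequence was chosen. In windows of 1 Mb, the placed sequences gave 770 windows with a median of 6 added DMRs, and a window with more than 18, that is over 3 times this median, was taken as dense. Of 18 dense windows on 10 sequences, 6 lay on the third sequence, which is 15.8% of its 38 windows, against 1.64% of the 732 windows elsewhere. These 6 windows held 167 of its 411 added DMRs (40.6%). The variance of the added counts over their mean was 7.51 on the third sequence and between 1.46 and 4.13 on the others. Unevenness there was not particular to added DMRs. The same ratio was 5.67 for shared DMRs (1.16 to 4.16 on the others) and 4.01 for muscle DMRs. For DMRs between tissues it was 9.32, inside the range of the others (3.76 to 11.8). It can also grow with the mean count, which for added DMRs was highest on the third sequence (10.8 per window).

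The fullest window of all placed sequences was window 13 of the third sequence, NC_036782.1:12000001-13000000, with 40 added and 30 shared DMRs. Window 4 had 33 added and 11 shared DMRs, and window 8, which contains the group of 9, had 30 added and 14 shared DMRs. Window 9 had 24 added and 5 shared DMRs, so the mixture of the kinds differed between windows. Windows 6 and 20 had 20 added DMRs each, beside 20 and 13 shared DMRs. Outside the third sequence, the highest counts were 27 added DMRs at NC_036783.1:29000001-30000000 and 27 at NC_036800.1:5000001-6000000.

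Shared and muscle DMRs had smaller shares in the same windows, which were chosen by their added DMRs. The 6 dense windows held 93 of the 305 shared DMRs of the third sequence (30.5%), 69 of its 210 muscle DMRs (32.9%) and 77 of its 811 DMRs between tissues (9.49%). Over its 38 windows the counts of added DMRs went with those of shared DMRs (Spearman's rho 0.76, Pearson's r 0.71). With muscle DMRs rho was 0.70 and r 0.66, whereas with DMRs between tissues rho was -0.22 and r -0.26. Over all 770 windows the values were 0.51 and 0.60 with shared DMRs and 0.48 and 0.54 with muscle DMRs. They were 0.10 and 0.01 with DMRs between tissues. Neighbouring windows are not independent, and the counts share the CG content and the mapping of a window, which were not analysed here. The added and shared DMRs also come from one list, in which the same base cannot be in both.

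Along the third sequence the density was high in the first part and low in the later part, with boundaries drawn here after the counts were seen. Windows 1 to 13 held 228 added DMRs (55.5%), 17.5 per Mb, although windows 3, 11 and 12 had only 4, 7 and 5. Windows 14 to 23 held 101, 10.1 per Mb. In windows 24 to 35 there were 49, 4.08 per Mb, and window 26 had none. Windows 36 to 38, the last of which is shorter than 1 Mb, held 33, or 14.3 per Mb. Shared DMRs had 12, 7.2, 4.08 and 12.1 per Mb in these stretches, also with the lowest density in windows 24 to 35. DMRs between tissues were sparse in windows 1 to 13 (10.8 per Mb) and had 28.2, 27.8 and 23.4 per Mb in the later stretches.

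**Figure D5:**
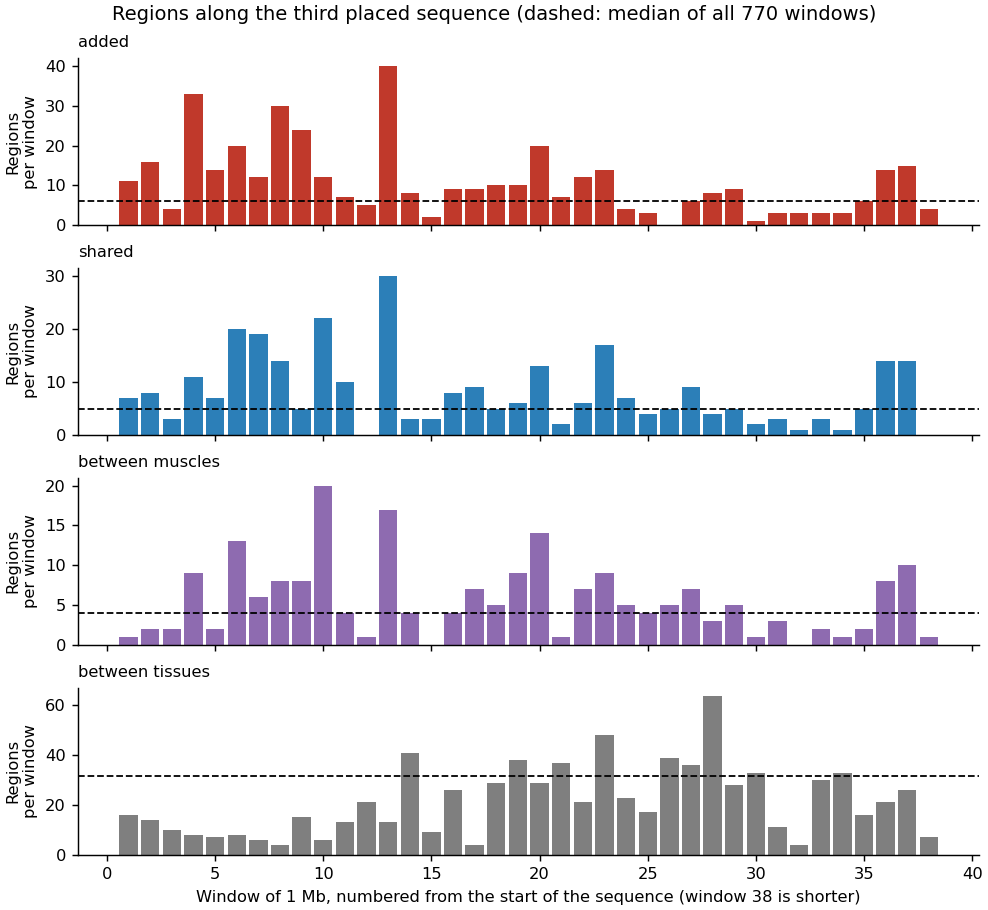
Number of DMRs per 1-Mb window (y axes) along the third placed sequence (x axis, windows numbered from its start) for added DMRs, shared DMRs, DMRs between muscles and DMRs between tissues, each with the median of all 770 windows as a dashed line. Added DMRs reach 40 in window 13, and DMRs between tissues lie below their median of 31.5 in each of windows 1 to 13.

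The share of added DMRs with an added neighbour depends on their density, by which these stretches were drawn. Its order over the stretches, and its value on the densest sequence, are therefore no separate result. In windows 1 to 13, 55.3% of the added DMRs had another within 10000 bp, against 28.7% in windows 14 to 23, 18.4% in windows 24 to 35 and 39.4% in windows 36 to 38. Over all of the third sequence the share was 43.1%, which ranked 3 among the 22, whose other members lay between 28.4% and 43.8%. Besides the group of 9, the largest groups were 7 added DMRs at NC_036782.1:3543398-3567007 in window 4 and 5 at NC_036782.1:12714109-12718432 in window 13. The 5 covered 1896 of 4324 bp (43.8%), with no DMR of another list between its ends. The longest added DMR of the third sequence, 2003 bp at NC_036782.1:12771981-12773983, lay in window 13 as well, 93032 bp from the nearest 3-species DMR.

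The added DMRs of the third sequence were 274 before its midpoint (66.7%) and 137 after it, a division that ranked 3 among the 22 placed sequences by unevenness, and the larger share on the others ran from 50.4% to 67.7%. Its DMRs between tissues were divided the other way, with 33.8% before the midpoint. On the placed sequences as a whole, added DMRs were somewhat more frequent at the ends, with 11.9% in the first 10% of the sequences and 13.1% in the last 10%. Shared DMRs had 10.7% and 13.9% there, and DMRs between tissues 8.43% and 8.17%. Without the third sequence the added DMRs had 11.7% and 13.4%.

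A muscle DMR was overlapped by 5.84% of the added DMRs of the third sequence, within the range of the other placed sequences (2.16% to 8%), and a DMR between tissues by 1.95% (0.526% to 5.26% on the others). The shared DMRs of the third sequence had a muscle overlap in 37.4%, against 36.8% to 55.4% on the other placed sequences. In its 4 stretches the share of added DMRs with a muscle overlap was 6.14%, 5.94%, 6.12% and 3.03%, of which the last is 1 of 33 DMRs.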

How the data were processed

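Bisulfite reads were trimmed with Trim Galore and mapped with Bismark to versions of the M. zebra UMD2a assembly corrected for the variants of each species (the submitters' processing notes and the study's methods). The authors predicted DMRs with DSS from groups of fish, above minimum values of length, CG sites and methylation difference, and deposited the positions (bp) of the 4 lists as they were used here. The 3-species liver list and the muscle list hold 5787 and 4390 DMRs, which differ from the numbers given in the study's text. Starts were read as counted from 0. The depth per region is not given in these lists, so it is unknown and no interval could rest on it. RL livers have 3 labelled methylomes, of which the averaged track of RL uses 2.

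Overlaps of at least 1 bp, gaps, groups (gap of at most 10000 bp) and windows (1000000 bp, dense above 3 times the median) were computed with Python 3.11.15, numpy 2.4.6 and pandas 2.3.3, and figures with matplotlib 3.10.9. The calculations were tested on simulated regions. Intervals used to judge alternatives were exact binomial (95%, scipy 1.17.1) and cover counting only. They treat DMRs as independent, although many lie near each other, and they are no test.

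Regions named are the 5 longest, the 3 largest groups, the 5 fullest windows, the 3 unplaced sequences with most added DMRs, the 3 nearest each side of the rule and, on the third sequence, the dense windows, the longest DMR and the largest groups. The 3 on the shared side of the rule are the first by sequence name of 14 tied at 50 bp. Others were named after their values were seen. The members, the lists and the third sequence were chosen with earlier results of these data known. Expression tables were not used, since no source used here places genes on UMD2a.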

Additional observations from a re-analysis of the deposited data

How the results depend on the processing

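The number of added DMRs stayed within 1.5 times of 7684 in each alternative tried, from 5350 on placed sequences only to 8342 when a shared DMR had to be covered over at least 50% of its length. The median length moved to 241 bp with that rule, to 296 bp among DMRs of at least 100 bp and to 241.5 bp on placed sequences, and it was below the median of shared DMRs in each of the 6 alternatives (362 to 480.5 bp). The share on unplaced sequences moved to 28.1% among DMRs of at least 100 bp. The share with an added neighbour was 16.2%, 27.3% and 65.6% at 1000, 5000 and 50000 bp and 48.1% with all 6-species DMRs as neighbours. The density on the third sequence over the others was 2.42 per DMR between tissues and 1.07 per shared DMR in place of per Mb. Its share in dense windows was 45.7% in windows of 0.5 Mb, 30.9% in windows of 2 Mb, 30.4% in windows shifted by 0.5 Mb, 58.4% above 2 times the median and 17.8% above 5 times. The share that overlapped a muscle DMR or a DMR between tissues was 4.63% when 50% of the added DMR had to be covered and 14.9% within 1000 bp. The other 15 of 32 values moved less than their counting interval, or less than 1.5 times for a number. Other joining gaps and other multiples of the median could move their values in a set direction only. The alternatives also reuse the same DMRs, so this tally is no measure of robustness.

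No paired analysis was possible because the DMR lists hold no values per fish. Comparisons of gene expression at added DMRs, with other pseudocounts, filters and left-out livers, were not run, since genes were not placed on UMD2a. No methylation level, direction, pair of species or coverage was analysed here. The study gives read numbers per fish, which were used here only to describe the AC livers, and the lists give no depth per region.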
